A study of Mus musculus with 2 samples.

Results

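Histones are the proteins around which nuclear DNA is wrapped. Their genes were measured here in mouse fetal liver cells enriched for colony-forming unit erythroid (CFU-E) progenitors, which lacked the erythropoietin receptor. A gene was taken as a histone gene when its symbol began with Hist1h, Hist2h, Hist3h, Hist4h, H1f, H2af, H3f, H2ac, H2bc, H3c or H4c and its probe set (the group of array probes for a transcript) was annotated to that gene alone. The rule found 13 genes, each with 1 probe set, among 17874 genes. The annotation used names several histone genes by newer symbols outside these prefixes, and 9 more genes were found through an older symbol that fits. They are given separately, and their inclusion was decided after the values were seen.

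The 2 samples were Affymetrix arrays of cells from EpoR-/- BALB/c embryos at gestational day 13.5. Fetal livers were pooled, 40 to 50 at a time, red cells were lysed, and cells bearing GR1, CD41, CD11b, CD14, CD45, B220, CD4, CD8, TER-119 or the YBM/42 antigen were removed with antibodies. All cells then spent 1 h without growth factors. The 3 h sample was kept for a further 3 h in Panserin medium with no growth factor added per the protocol, whereas its treatment label names supplemental growth factors, and the 0 h sample was lysed at once. Both samples carry the genotype label Epo KO where the protocol names the receptor, the strain is labelled for the 0 h sample alone, no receptor-bearing cells were analysed here, and the labels do not say whether both came from the same pool. Each time has 1 array, so the differences below carry no error, test or replicate check, and their precision is limited by the number of arrays.

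Values are log2 expression values, and differences are 3 h minus 0 h. The floor for counting a gene was 5.70, the middle of all values, and 9284 genes had a value at or above it in at least 1 sample. All 16 measured erythroid markers were at or above the floor, 11 of them higher and 5 lower at 3 h. The 5 lower ones include Epor, the gene of the receptor these cells lacked, with 6.89 at 3 h and 7.08 at 0 h. What its probe set reads in these cells was not tested. The summed linear signal of the 16 markers was 23655 at 3 h and 19004 at 0 h. A rise of 1.5-fold or more was seen in 6 of them and a fall of that size in 1. Among all genes at the floor, such a rise was seen in 6.94% and such a fall in 4.80%. Counted by direction alone, 51.5% of these genes were higher at 3 h and 48.5% lower. Of genes below the floor, 51.2% were lower. Markers of other cells gave signal as well, and the part of any of these marker shifts in the results below was not tested. At or above the floor were 11 of 17 granulocyte and mast cell markers and 7 of 16 macrophage and monocyte markers. So were all 18 hepatocyte, 4 of 8 megakaryocyte and 2 of 12 lymphoid markers, and the rest lay below it. Over all measured markers, floor or not, 14 of 17 granulocyte and mast cell markers were higher at 3 h, and they summed to 12657 at 3 h and 6615 at 0 h. Of 16 macrophage and monocyte markers 11 were higher, with sums of 4474 at 3 h and 2257 at 0 h. Of 18 hepatocyte markers 16 were lower, with sums of 106444 at 3 h and 113396 at 0 h. Of 8 megakaryocyte markers 5 were higher, with sums of 449 at 3 h and 358 at 0 h. Gp1bb differed most, with 6.68 at 3 h and 4.49, below the floor, at 0 h. Of 12 lymphoid markers 8 were higher, with sums of 530.2 at 3 h and 384 at 0 h. Only Ptprc (7.99 at 3 h, 7.30 at 0 h) and Ighm (6.44 at 3 h, 5.70 at 0 h) of these reached the floor. Ptprc encodes CD45, an antigen used for removal. For other such antigens in these lists, Cd14 (8.51 at 3 h, 7.88 at 0 h) and Itga2b (CD41) were at the floor. Itgam (CD11b), Cd4 and Cd8a were below it. In such mixed samples fewer cells of a type and less RNA per cell cannot be told apart.

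As background, the core histones H2A, H2B, H3 and H4 form the nucleosome, and the linker histone H1 binds where DNA enters and leaves it. Most histone genes lie in clusters and are replication-dependent: they are read in S phase, when new DNA must be packed, and their mRNAs end in a stem-loop and have no poly(A) tail. Variant histones are made throughout the cell cycle from ordinary polyadenylated mRNAs and replace the others at particular places. Erythroid progenitors divide fast and later condense their chromatin and expel the nucleus. The labelling used for these arrays starts from poly(A) tails, so the values of replication-dependent genes describe polyadenylated or otherwise primed transcripts and are not levels of their stem-loop mRNAs. Some of these genes are known to give polyadenylated transcripts too.

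Promoters of 4 of the genes are printed below. They were chosen, after the values were seen, to set replication-dependent genes that were lower (H1f2, H2aw) or higher (H2bc22) at 3 h beside a variant gene. They are the 150 bases before the annotated start of each gene, from RefSeq (GRCm38.p6), written 5′ to 3′ along the gene. Capitals mark CCAAT, the binding sequence of the factor NF-Y, TATAAA, the octamer ATTTGCAT bound by OCT1, and AAACACA, known from H1 promoters, each on either strand. H1f2 lies on the plus strand (chr13:23738657-23738806), H2bc22 on the plus strand (chr13:21787338-21787487), H2aw on the plus strand (chr11:58954535-58954684) and H3f3b on the minus strand (chr11:116024505-116024654).
H1f2: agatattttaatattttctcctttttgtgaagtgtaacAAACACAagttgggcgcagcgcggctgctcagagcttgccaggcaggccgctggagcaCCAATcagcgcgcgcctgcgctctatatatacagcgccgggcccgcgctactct
H2bc22: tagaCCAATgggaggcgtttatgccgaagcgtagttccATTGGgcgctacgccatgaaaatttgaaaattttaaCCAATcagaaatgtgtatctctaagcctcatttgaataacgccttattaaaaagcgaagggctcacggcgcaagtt
H2aw: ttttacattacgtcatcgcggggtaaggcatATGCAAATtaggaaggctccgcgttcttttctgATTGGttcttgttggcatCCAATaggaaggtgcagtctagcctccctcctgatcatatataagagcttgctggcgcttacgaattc
H3f3b: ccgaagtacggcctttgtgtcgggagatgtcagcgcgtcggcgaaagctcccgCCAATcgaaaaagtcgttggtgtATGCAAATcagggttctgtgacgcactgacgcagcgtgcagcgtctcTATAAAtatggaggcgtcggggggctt

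All 4 windows hold at least 1 CCAAT. Over the 250 bases before the start, CCAAT or its complement ATTGG was found in 33.8% of all 32851 windows in the table. Among genes of the name rule it was found in 6 of 7 replication-dependent and 3 of 4 variant genes. The 7 include, by symbol, the germ line genes H1f6 and H1f7. Among genes found by an older symbol it was found in H2aw and 3 of 6 variant genes. AAACACA or TGTGTTT was found in 6.25% of all windows. On the gene's own strand its first letter lay 112 bases before the start in H1f2, 115 in H1f4 and 114 in H1f6, 3 linker histone genes of the same cluster, and CCAAT lay 54, 52 and 65 bases before the start of these genes. The fourth gene to hold it was H3f3a, on the opposite strand at 181 bases. The octamer, on either strand, is in 1.60% of all windows. Among all 18 histone genes searched it was found in H2bc18, H3f3b and H2aw. TATAAA or TTTATA is in 12.4% of all windows and was found in H1f4, H2bc22, H3c11 and H3f3b. H1f4 and H3f3b have it on their own strand at 27 bases, and H3c11 at 147. The search took exact letters only, so similar stretches, such as tatata in the printed H1f2 and H2aw windows, were not counted. A match of letters is a description and not a site shown to be used. H2bc21 and H3c7 are the members without a promoter here, and AAACACA was added to the search after the values were seen.

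Among the histone genes, the linker histone gene H1f2 was lower at 3 h, the H2B genes H2bc21 and H2bc22 were higher, and the variant genes H3f3a, H3f3b and H1f10 were close to their start. The 13 genes stand against 71 protein-coding genes with these prefixes in the RefSeq annotation, 10 of them H1, 17 H2A, 16 H2B, 16 H3 and 12 H4. The members are 6 H1, 3 H2B and 4 H3 genes. At or above the floor were 6 of the 13, of which 3 are replication-dependent (H1f2, H2bc21, H2bc22) and 3 are variants. Of these 6, 4 were higher and 2 lower at 3 h, beside 51.5% higher and 48.5% lower over all genes at the floor. H2bc21 alone was at least 1.5-fold different, against 11.7% of all genes at the floor, and none was 2-fold different, against 2.88%. The median difference of the 6 was 0.08, beside 0.01 over all genes at the floor.

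**Figure D1:**
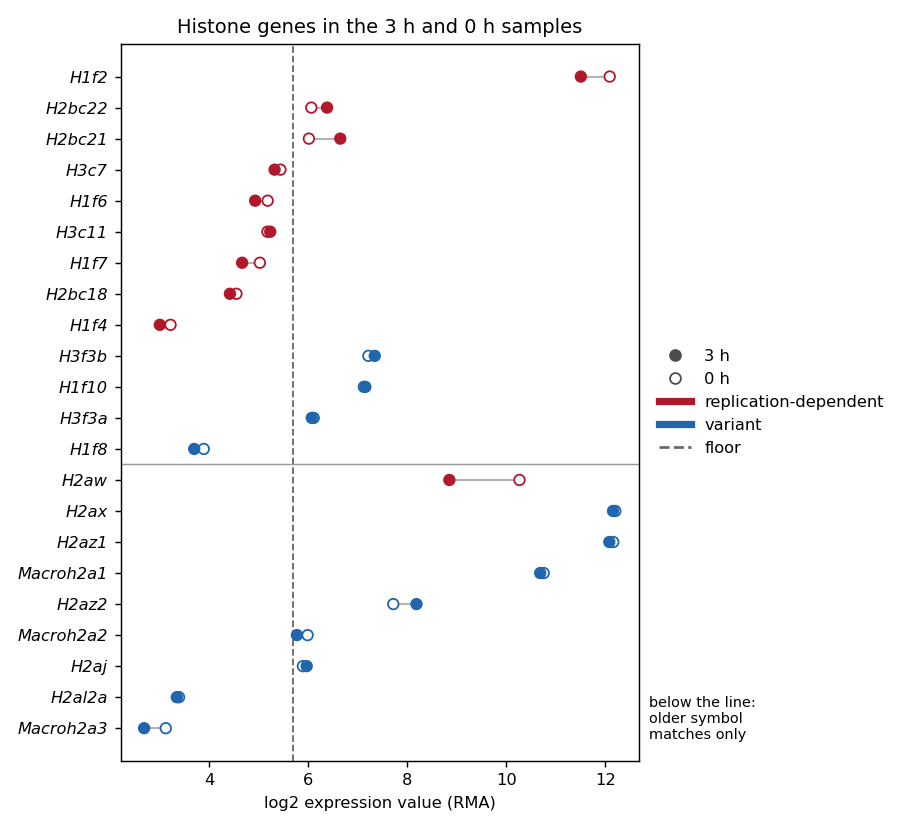
Log2 expression value (horizontal axis) of each histone gene at 3 h (filled) and 0 h (open), 1 array each, with replication-dependent genes in red, variant genes in blue and the floor of 5.70 dashed. Class is by symbol, which puts the germ line genes H1f6 and H1f7 in red. Genes under the grey line fit the name rule only by an older symbol. Above the floor, H1f2 and H2aw lie lower at 3 h and H2bc21, H2bc22 and H2az2 higher, and below it the widest pairs are Macroh2a3 (-0.44) and H1f7 (-0.36), both lower.

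H1f2 encodes the linker histone H1.2, a widely expressed H1 subtype. It had a value of 11.51 at 3 h, against 12.09 at 0 h. The 3 h sample was lower by 0.58 on the log2 scale, a fold of 1.498 that falls just short of 1.5-fold. Of all genes at the floor, 4.87% were lower by as much. Differences were smaller among strongly expressed genes: of 581 genes with a mean value of 11 or more, 3.61% differed by 1.5-fold either way, and 13 of the 581 (2.24%) were lower by as much as H1f2. Its probe set has the suffix _a_at, which marks transcripts of the same gene.

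H1f10 encodes H1.10, a variant linker histone whose mRNA is polyadenylated. It had values of 7.15 at 3 h and 7.12 at 0 h, a difference of 0.03. Of the linker genes at the floor, H1f2 was thus lower and H1f10 level. The other 4 linker genes stayed below the floor in both samples. H1f4, which encodes the somatic subtype H1.4, had 3.00 at 3 h and 3.22 at 0 h. The germ line linker genes H1f6, H1f7 and H1f8 were lower at 3 h. H1f6 had 4.93 at 3 h and 5.18 at 0 h (-0.25), and H1f7 had 4.66 at 3 h and 5.02 at 0 h (-0.36). H1f8 had 3.70 at 3 h and 3.89 at 0 h (-0.19). H1f6 and H1f7 are known from the testis and H1f8 from the oocyte.

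The H2B genes at the floor differed in the opposite direction from H1f2. H2bc21 had 6.65 at 3 h and 6.01 at 0 h, a difference of 0.63 or 1.55-fold. A 1.5-fold higher value was seen in 6.94% of genes at the floor, and one higher by as much as H2bc21 in 5.84%. Quantile normalization of both arrays against each other reduced it to 0.57, below the 1.5-fold mark. H2bc22 had 6.38 at 3 h and 6.06 at 0 h, a difference of 0.32 or 1.25-fold, as large as in 18.4% of genes at the floor and in 24.7% of those with a mean below 7. Both values lie near the floor, where 17.7% of the 2902 genes with a mean below 7 differed by 1.5-fold either way and 10.4% were higher by as much as H2bc21. H2bc18, an H2B gene of the smaller histone cluster that also holds H2bc21, was below the floor with 4.42 at 3 h and 4.55 at 0 h.

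By suffix, the probe sets of the 2 H2B genes are those that can match several genes. H2bc21 has the suffix _s_at and H2bc22 _x_at. They are the only such probe sets among the 13 of the name rule (15.4%), against 7.24% of the 17918 probe sets with 1 gene. H2B genes are nearly identical in their coding parts, so the signal of either may come in part from other H2B genes, and how much was not tested. Without these probe sets, and without that of H1f2, no replication-dependent gene was left at the floor.

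H3.3, a variant of H3, is encoded by H3f3a and H3f3b as the same protein. H3f3b had 7.34 at 3 h and 7.22 at 0 h, a difference of 0.13 or 1.09-fold. H3f3a had 6.07 at 3 h and 6.11 at 0 h, a difference of -0.04. Differences at least as far in the same direction were seen in 35.0% of genes at the floor for H3f3b and in 43.4% for H3f3a. The replication-dependent H3 genes H3c7 (5.32 at 3 h, 5.44 at 0 h) and H3c11 (5.23 at 3 h, 5.18 at 0 h) were below the floor, the nearest members under it, as H3f3a was among the nearest above it.

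No H4 gene has a probe set of its own among the members. A single probe set annotated to 13 genes, several of them H4 genes, and so named for none of them, had 8.06 at 3 h and 7.80 at 0 h. Its suffix is _at, so the suffix alone did not show that it matches several genes. The difference of 0.25 was matched or exceeded by 23.3% of genes at the floor.

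By class, the 3 replication-dependent genes at the floor had differences of -0.58, 0.32 and 0.63, with a median of 0.32. The 3 variant genes had -0.04, 0.03 and 0.13, with a median of 0.03. Among these 6, each replication-dependent gene differed by more in size than every variant gene, H1f2 downward and the H2B genes upward, and the class medians differed by 0.29. This figure rests on 3 genes a class, and over all 13 members without the floor it was -0.13. Class was set by symbol, so the latter counts the germ line genes H1f6 (-0.25) and H1f7 (-0.36) as replication-dependent. How far it depends on their class was not tested. The 7 members below the floor, 6 lower and 1 higher at 3 h, had differences between -0.36 and 0.06 and a median of -0.19. Of all 8590 genes below the floor, 51.2% were lower.

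Among the histone genes found through an older symbol, the H2A gene H2aw (Hist3h2a) differed most. Its value was 8.85 at 3 h and 10.27 at 0 h, so it was lower by 1.42 on the log2 scale, or 2.67-fold. Only 0.248% of genes at the floor were lower by as much, and 0.872% were 2-fold lower. Among the 1958 genes with a mean from 9 to below 11, 5 were as low as H2aw or lower, itself included. Its difference was -1.41 after quantile normalization of both arrays and -1.40 after removal of an intensity trend. Its probe set carries the suffix _s_at, and signal from other H2A genes was not tested.

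The H2A variants were mostly level. H2ax, whose product is phosphorylated at DNA breaks and whose transcripts have both a stem-loop and a polyadenylated form, had 12.16 at 3 h and 12.20 at 0 h. H2az1 and H2az2 encode the closely related forms of H2A.Z, found beside active gene starts. H2az1 had 12.08 at 3 h and 12.16 at 0 h, a difference of -0.08. H2az2 had 8.19 at 3 h and 7.72 at 0 h, a difference of 0.47 or 1.38-fold. Of genes at the floor, 10.5% matched or exceeded the difference of H2az2. The probe set of H2az1 has the suffix _x_at, and that of H2az2 has _at. Signal from other genes in the H2az1 values was not tested. H2az2 was thus the variant gene with the widest difference at the floor.

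The macroH2A proteins carry a large extra domain and are enriched on the inactive X chromosome. Macroh2a1 had 10.68 at 3 h and 10.76 at 0 h, and Macroh2a2 had 5.77 at 3 h and 5.99 at 0 h. H2aj, which encodes an H2A variant known from senescent human cells, had 5.97 at 3 h and 5.89 at 0 h. These 3 genes differed by -0.07, -0.22 and 0.08. The probe set of Macroh2a2 carries the suffix _x_at, and signal from other genes was not tested. Below the floor were the germ line gene H2al2a (3.35 at 3 h, 3.39 at 0 h) and Macroh2a3 (2.68 at 3 h, 3.12 at 0 h).

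With these genes included, 13 of 22 histone genes reached the floor. The 4 replication-dependent ones had differences from -1.42 to 0.63 and a median of -0.13, and the 9 variant ones from -0.22 to 0.47 and a median of -0.04. Of the 13, H2bc21 was at least 1.5-fold higher and H2aw at least 1.5-fold lower, where 6.94% and 4.80% of all genes at the floor were. The direction of the replication-dependent median thus depends on whether H2aw is counted. The settings that can move the value of a gene with 1 probe set, quantile normalization and removal of an intensity trend, left the signs of H1f2, H2aw, H2bc21 and H2bc22 as they were.

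**Figure D2:**
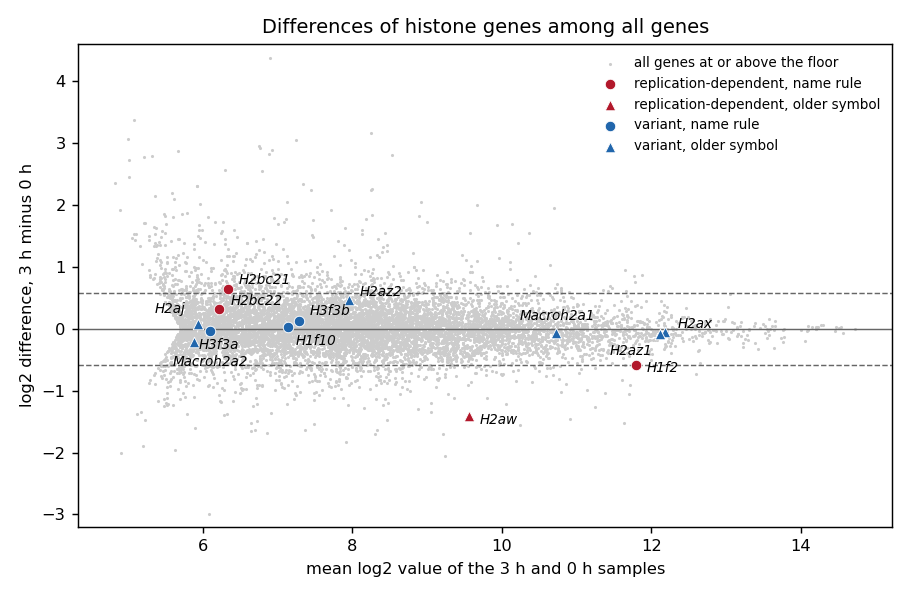
Log2 difference, 3 h minus 0 h, against the mean log2 value of both samples for all 9284 genes at or above the floor (grey) and for the histone genes (red replication-dependent, blue variant, circles by the name rule, triangles by an older symbol). Dashed lines mark 1.5-fold. H2aw lies apart at -1.42, H1f2 sits on the lower line among strongly expressed genes, and H2bc21 is just above the upper line where the grey points spread widely.

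The genes that make and handle histones were described from lists chosen with earlier results of these data known. Of 36 measured genes of histone mRNA processing and turnover, 35 reached the floor. Of these 14 were higher and 21 lower, with a median of -0.04, and Zfp473 alone was 1.5-fold different. Zfp473, a part of the U7 particle that cuts histone transcripts, had 5.11 at 3 h, below the floor, and 5.81 at 0 h, a difference of -0.69. The nonsense-decay gene Upf2 (8.99 at 3 h, 9.53 at 0 h) and Sympk (8.14 at 3 h, 8.66 at 0 h), the scaffold of the cutting complex, were also lower, by less than 1.5-fold. Cstf3, which encodes a factor of cleavage before polyadenylation, had 10.07 at 3 h and 9.57 at 0 h.

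Slbp and Npat, named whatever their values, differed by less than Zfp473. Slbp, the stem-loop binding protein, had 6.51 at 3 h and 6.70 at 0 h, a difference of -0.19. Npat, the coactivator that turns on histone genes in S phase, had 8.67 at 3 h and 8.63 at 0 h. The difference of Npat was 0.04.

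Histone chaperones and importers went both ways. Of 40 measured genes 35 reached the floor, 18 higher and 17 lower, with a median of 0.03. Set, a chaperone and phosphatase inhibitor, alone reached 1.5-fold, with 11.36 at 3 h and 11.95 at 0 h. The partners that place H3.3 at repeats and telomeres differed in opposite directions: Atrx had 5.71 at 3 h and 6.29 at 0 h, and Daxx had 9.38 at 3 h and 8.80 at 0 h, differences of -0.58 and 0.58. Tonsl, which binds newly made histones at forks, had 8.16 at 3 h and 7.59 at 0 h. Asf1b, the chaperone of new H3 and H4 in dividing cells, had 9.23 at 3 h and 9.14 at 0 h.

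Genes of S phase, the phase in which histones are made, differed little as a group. Of 33 at the floor 22 were higher and 11 lower, with a median of 0.08. Only E2f2, a transcription factor of cell cycle genes, reached 1.5-fold, with 6.81 at 3 h and 7.49 at 0 h. The cyclin gene Ccne2 had 9.45 at 3 h and 8.88 at 0 h. The thymidine kinase gene Tk1 (9.08 at 3 h, 9.49 at 0 h) and the polymerase gene Pola1 (8.77 at 3 h, 9.14 at 0 h) were lower by less than 1.5-fold. Pcna, the sliding clamp, had 13.65 at 3 h and 13.49 at 0 h.

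In these 3 lists the shares of genes past 1.5-fold, 1 of 35, 1 of 35 and 1 of 33, lay under the 11.7% of all genes at the floor. Most of the listed genes are more strongly expressed than the floor, with median values at 3 h of 8.91, 9.76 and 10.39. Over all genes at the floor, 10.8% of those with a mean from 7 to below 9 differed by 1.5-fold. From 9 to below 11 the share was 7.25%. The part of expression level in the shares of the 3 lists was not tested.

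**Figure D3:**
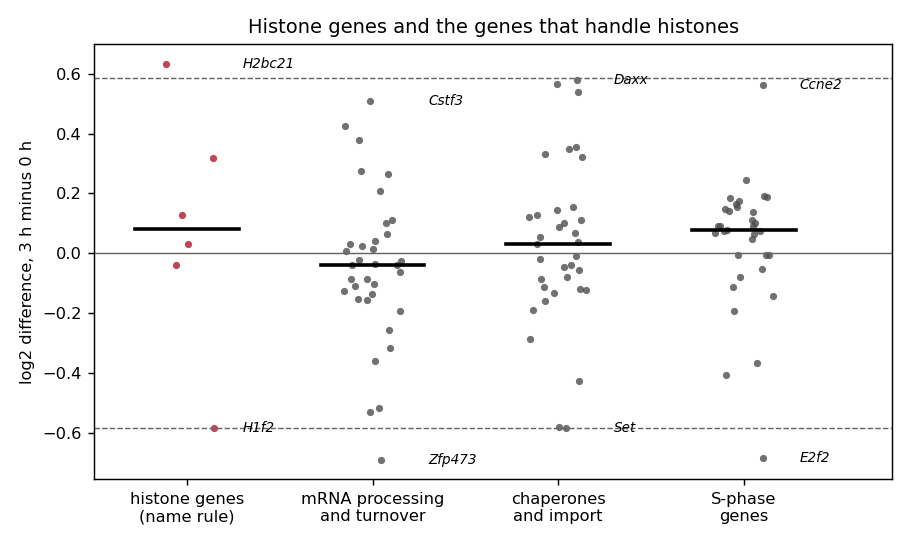
Log2 difference, 3 h minus 0 h, of each gene at or above the floor (points) and the median (bar) for the 6 histone genes of the name rule and for the lists of histone mRNA processing and turnover (35), chaperones and import (35) and S phase (33), with 1.5-fold dashed and the lowest and highest gene named. The medians lie between -0.04 and 0.08.

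**Figure D4:**
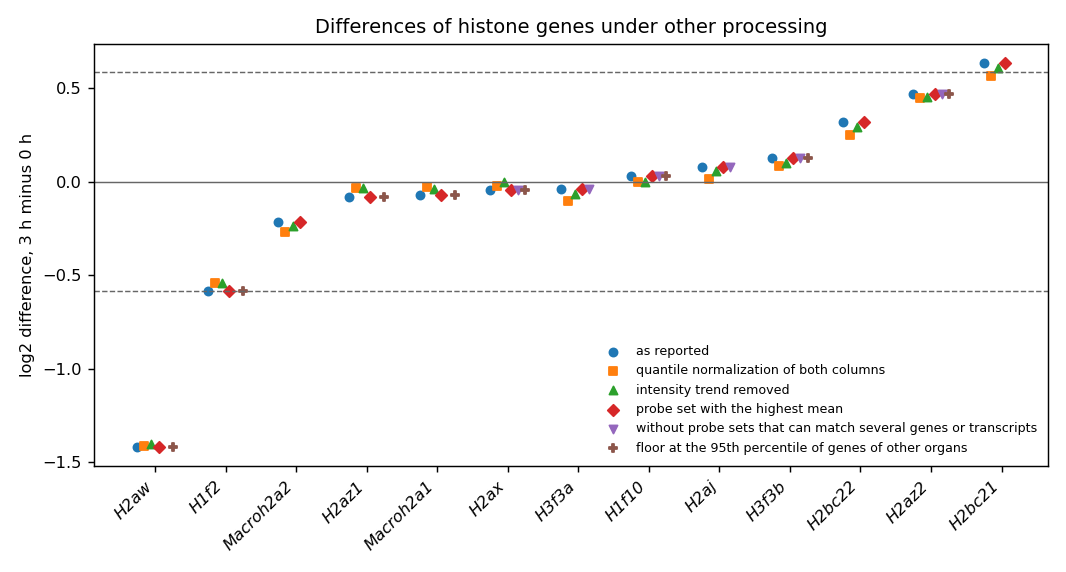
Log2 difference, 3 h minus 0 h, of the 13 histone genes at the floor under the reported processing and 5 other settings, each where the gene is still measured. Each gene has 1 probe set, so only quantile normalization and removal of an intensity trend can move a value. Neither changed a sign, and H2bc21 dropped under the 1.5-fold line after quantile normalization.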

How the data were processed

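The values used are log2 expression values as deposited by the authors, who named RMA and the affy package in the submitters' processing notes. Versions, and which arrays were processed together, are not known here. RMA aligns the distributions of arrays, so a shift of all transcripts could not be seen, and it shrinks differences of dim signals. The time in each title gave the group. Of 20666 probe sets, 17918 had 1 gene in the platform annotation, 79 several and 2669 none, and those without a single gene were named for none. Probe sets of a gene were averaged. The floor was the median of all gene values. Replication-dependent and variant genes were told apart by symbol, which placed the germ line genes H1f6 and H1f7 with the replication-dependent ones. The members, lists, thresholds and alternatives were chosen with earlier results of these data known. Every member was named, and in each list the 4 genes with the widest difference at the floor, with Slbp, Npat, Cenpa, Asf1b and Pcna. No test was possible with 1 array a group. Steps were tested on simulated data. The tools were matplotlib 3.10.9, statsmodels 0.14.6, pandas 2.3.3, numpy 2.4.6 and Python 3.11.15.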

Additional observations from a re-analysis of the deposited data

How the results depend on the processing

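Each class median rests on a few genes. Reported were medians of 0.08 for the 6 histone genes, 0.32 for the replication-dependent ones, 0.03 for the variant ones and 0.29 for the difference of the classes. With no floor, where the germ line genes H1f6 and H1f7 counted as replication-dependent by symbol, the first, second and last were -0.12, -0.13 and -0.13. With the genes under older symbols, a setting chosen after seeing the data, they were -0.039, -0.13 and -0.093. With a higher floor of 7.09, the 95th percentile of 37 genes known from other organs, H1f2 was the only replication-dependent gene left, so that class stood at -0.58 and the difference of the classes at -0.66. Means in place of medians gave 0.12 for the replication-dependent genes and 0.083 for the difference of the classes, and H2ax counted as replication-dependent gave 0.14 and 0.11 for the same. Values moving by under 0.1 were taken as unchanged, which covers all 10 alternatives of the variant median, between -0.04 and 0.08. The choice of probe set and the omission of germ line genes could not move a histone median, since each histone gene has 1 probe set and the germ line genes lie below the floor. Without probe sets that can match several genes or transcripts no replication-dependent gene was left. The list of centromere and other histone genes had a median of -0.07 and, without such probe sets, one of 0.077. The medians of the processing, chaperone and S-phase lists moved by under 0.1 in all 7 alternatives each. No paired analysis was possible because each time has 1 array.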

Other observations

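A list of centromere and other histone genes outside the name rule had 14 measured members, of which 7 reached the floor, 2 higher and 5 lower. Besides H2az2, H2az1 and Macroh2a2, the protamine gene Prm1, known from sperm, had 5.78 at 3 h and 6.24 at 0 h, with a probe set that can match several genes. Cenpa, the H3 variant of centromeres, was below the floor with 5.35 at 3 h and 5.51 at 0 h. No gene of the germ line histone list reached the floor among the 6 measured.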
